A study of Homo sapiens with 2 samples.

Results

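The 9 genes described here belong to the antioxidant programme of the transcription factor NRF2: NFE2L2, which encodes NRF2 itself, its inhibitor KEAP1, and the antioxidant and detoxification genes GCLC, GCLM, TXNRD1, SRXN1, GPX4, NQO1 and HMOX1. They were taken by symbol from a table of 26485 genes, and all 9 were found and passed the minimum level of 1 CPM (a gene's count scaled to a common library size) in the higher library. RNA was sequenced from SK-LMS-1 and SK-UT-1, human leiomyosarcoma cell lines, which are grown from malignant tumours of smooth muscle lineage. Each line had been given the solvent DMSO and was represented by 1 library of total RNA, so the groups share the solvent and differ in cell line. The labels give no solvent concentration or time, and no untreated cells. The series concerns a combination of inhibitors of SUV39H2 and of PARP enzymes, and the comparison of lines given solvent only describes their starting state.

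With 1 library per line, no difference has a replicate check and no test between the lines was possible. A gene is called different where its levels in the 2 libraries differed by at least 2-fold. The ranges in parentheses after levels and folds are exact 95% intervals, which cover counting error only and treat counted fragments as independent. The SK-LMS-1 library held 6906280 counts and the SK-UT-1 library 7635850. Of 14324 measured genes, 21.9% were past 2-fold towards SK-LMS-1 (higher there by that much or more), 18.3% were past it towards SK-UT-1, and 40.2% were past it in either direction. Of 13 smooth muscle markers, 11 were measured, with 6 past 2-fold towards SK-LMS-1, 3 towards SK-UT-1 and 2 inside that limit. The 13 summed to 1524 CPM in SK-LMS-1 against 574 CPM in SK-UT-1, and CALD1 (749 CPM in SK-LMS-1 against 343 in SK-UT-1), MYLK (414 CPM in SK-LMS-1 against 9.94 in SK-UT-1) and SMTN (216 CPM in SK-LMS-1 against 109 in SK-UT-1) made up most of the SK-LMS-1 sum. ACTA2, at 10.5 CPM in SK-LMS-1 against 54.0 in SK-UT-1, and DES, with 1 count in SK-LMS-1 against 26 in SK-UT-1, were past 2-fold in the opposite direction. The markers of mature smooth muscle MYH11, with 5 counts in SK-LMS-1 against 2 in SK-UT-1, and MYOCD, with 0 counts in each, were below the minimum level in both. The 7 epithelial markers summed to 101 CPM in SK-LMS-1 against 48.2 in SK-UT-1. KRT18, at 73.3 CPM in SK-LMS-1 against 10.6 in SK-UT-1, made up most of the SK-LMS-1 sum. Of the 5 epithelial markers that were measured, 2 were past 2-fold towards SK-LMS-1, 1 towards SK-UT-1 and 2 inside that limit. EPCAM, with 1 count in SK-LMS-1 against 9 in SK-UT-1, was the 1 towards SK-UT-1. CDH1, with 0 counts in SK-LMS-1 against 4 in SK-UT-1, was below the minimum level in both. The 5 leukocyte markers summed to 0.458 CPM in SK-LMS-1 against 1.12 in SK-UT-1, and the 4 endothelial markers to 1.53 CPM in SK-LMS-1 against 0 in SK-UT-1. The 3 globin genes of erythroid cells had 0 counts in both. The part of the marker differences in the results was not tested.

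NRF2 is held in check by KEAP1, an adaptor that brings it to a cullin ubiquitin ligase for destruction. Oxidants and electrophiles modify cysteines of KEAP1, NRF2 then accumulates, pairs with a small MAF protein and binds antioxidant response elements (AREs) near its target genes. Control of NRF2 is therefore largely at the level of the protein, which RNA counts do not measure. The target genes make glutathione, recycle thioredoxin, reduce quinones and break down haem. The programme is known for protecting cells from oxidative damage and, in tumours, for lowering the effect of some drugs. GPX4, a selenoprotein best known as the guard against ferroptosis, is often grouped with them.

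The start regions of the members are shown here because the ARE is the letter pattern through which NRF2 acts. RefSeq windows (GRCh38.p14, the same chromosome sequences as hg38) running from 250 bases before to 50 bases after a transcription start were searched on both strands for the ARE core TGACNNNGC, whose reverse complement is GCNNNGTCA. Windows were at hand for 8 of the 9 members, 13 windows in all because some genes have several starts. HMOX1 was not matched. A core was present in 4 of the 13 windows, belonging to 3 members, GCLM, KEAP1 and TXNRD1. Over all 35116 windows of this length, 13.3% held one, and among those of the pathway genes described below 17.6% did. The 4 windows with a core are printed first, followed by NQO1, the member with the largest difference between the lines, and the upstream of the 2 windows of NFE2L2, neither of which held one. NQO1 was added to the printed set after its values were seen. Each is given 5′ to 3′ along the gene, in lower case, with every core match in capitals.
GCLM, chr1:93909381-93909680, minus strand: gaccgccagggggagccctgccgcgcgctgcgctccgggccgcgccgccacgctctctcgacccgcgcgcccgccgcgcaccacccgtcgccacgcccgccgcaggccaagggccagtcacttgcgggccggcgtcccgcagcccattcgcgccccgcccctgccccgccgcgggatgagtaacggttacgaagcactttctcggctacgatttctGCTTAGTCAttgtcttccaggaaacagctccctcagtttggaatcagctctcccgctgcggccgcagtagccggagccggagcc
KEAP1, chr19:10502722-10503021, minus strand: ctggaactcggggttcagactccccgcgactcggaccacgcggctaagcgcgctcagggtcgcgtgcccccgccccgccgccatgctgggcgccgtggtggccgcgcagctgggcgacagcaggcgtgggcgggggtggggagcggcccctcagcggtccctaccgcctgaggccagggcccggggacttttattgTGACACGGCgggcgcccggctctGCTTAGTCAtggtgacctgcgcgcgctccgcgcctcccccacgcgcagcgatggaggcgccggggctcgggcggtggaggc
TXNRD1, chr12:104215529-104215828, plus strand: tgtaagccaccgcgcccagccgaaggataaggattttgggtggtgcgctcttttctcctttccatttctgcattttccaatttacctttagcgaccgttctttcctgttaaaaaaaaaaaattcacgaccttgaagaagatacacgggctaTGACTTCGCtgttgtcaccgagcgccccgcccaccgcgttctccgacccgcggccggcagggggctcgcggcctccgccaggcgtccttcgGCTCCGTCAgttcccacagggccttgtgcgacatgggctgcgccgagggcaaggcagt
TXNRD1, chr12:104286782-104287081, plus strand: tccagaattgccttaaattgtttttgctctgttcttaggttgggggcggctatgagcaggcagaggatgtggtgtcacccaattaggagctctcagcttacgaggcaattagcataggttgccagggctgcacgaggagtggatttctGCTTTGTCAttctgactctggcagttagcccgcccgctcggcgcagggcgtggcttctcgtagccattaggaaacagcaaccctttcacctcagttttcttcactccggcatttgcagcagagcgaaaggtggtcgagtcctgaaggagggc
NQO1, chr16:69726511-69726810, minus strand: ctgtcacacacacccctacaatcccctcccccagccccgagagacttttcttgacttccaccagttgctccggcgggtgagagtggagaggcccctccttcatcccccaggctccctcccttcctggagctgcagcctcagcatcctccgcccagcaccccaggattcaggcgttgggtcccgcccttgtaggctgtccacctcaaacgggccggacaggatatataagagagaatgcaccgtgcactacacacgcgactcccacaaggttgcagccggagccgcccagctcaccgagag
NFE2L2, chr2:177264678-177264977, minus strand: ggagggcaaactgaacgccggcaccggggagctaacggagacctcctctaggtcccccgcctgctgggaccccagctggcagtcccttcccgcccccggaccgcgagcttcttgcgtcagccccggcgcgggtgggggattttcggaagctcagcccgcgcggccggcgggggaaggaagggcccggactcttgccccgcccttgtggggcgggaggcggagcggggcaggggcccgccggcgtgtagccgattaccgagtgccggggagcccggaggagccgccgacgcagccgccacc
The letters GCTTAGTCA occurred in both GCLM, where the match begins at position -34 from the start, and KEAP1, where it begins at -31 with a second core at -54. The first TXNRD1 start had cores at -99 and -8 and the second had one at -102. None of these matches overlapped another core or the AP-1 motif TGANTCA. A match is a description of the letters and not a measured binding site, and a window without one says nothing of AREs elsewhere around the gene.

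Of the 9 members, NQO1 and HMOX1 were lower in SK-LMS-1 than in SK-UT-1 by 2-fold or more, 0 were higher by that much, and 7 lay within 2-fold. The 2 of 9 (22.2%) stand beside 18.3% of all measured genes past 2-fold in that direction, a share near the background. The median log2 ratio of SK-LMS-1 over SK-UT-1 was -0.35 over the members and 0.01 over all measured genes. The log2 ratios ran from -2.77 for NQO1 to 0.21 for TXNRD1, with 6 members below 0 and 3 above.

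NFE2L2, the gene of NRF2, was at almost the same level in both lines. It had 815 counts in SK-LMS-1, or 124 CPM (116 to 133), against 944 counts in SK-UT-1, or 117 CPM (110 to 125). The ratio was 1.06 (0.964 to 1.17), so a difference was not detectable at this depth, and its sign turned when counts were scaled by library totals (log2 0.08 with the main scaling, -0.07 with totals). The gene spans chromosome 2, 177230303 to 177265131, on the minus strand in hg38. KEAP1, the inhibitor, spans chromosome 19, 10486120 to 10503378, also on the minus strand. It had 285 counts in SK-LMS-1, or 43.5 CPM (38.6 to 48.9), against 540 counts in SK-UT-1, or 67.1 CPM (61.6 to 73.0). KEAP1 was 1.54-fold lower in SK-LMS-1 (1.33 to 1.79), which is within 2-fold but outside counting error. Per kilobase of exon, there was 0.433 times as much KEAP1 as NFE2L2 transcript in SK-LMS-1 (0.377 to 0.496) against 0.708 times as much in SK-UT-1 (0.636 to 0.788).

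GCLC and GCLM encode the catalytic and the modifier subunit of glutamate-cysteine ligase, the first enzyme of glutathione synthesis. Both were slightly lower in SK-LMS-1 and by similar amounts. GCLC had 173 counts in SK-LMS-1, or 26.4 CPM (22.6 to 30.6), against 277 counts in SK-UT-1, or 34.4 CPM (30.5 to 38.7), 1.30-fold lower in SK-LMS-1 (1.07 to 1.59). GCLM had 554 counts in SK-LMS-1, or 84.6 CPM (77.7 to 91.9), against 860 counts in SK-UT-1, or 107 CPM (99.8 to 114), 1.26-fold lower in SK-LMS-1 (1.13 to 1.41). The proportion of the subunits was alike in the libraries: per kilobase of exon, the GCLC level was 0.414 times that of GCLM in SK-LMS-1 (0.347 to 0.491) against 0.427 times in SK-UT-1 (0.371 to 0.489). GCLC lies on chromosome 6, 53497341 to 53545129, and GCLM on chromosome 1, 93885200 to 93909598, both on the minus strand.

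TXNRD1 encodes the cytosolic thioredoxin reductase, a selenoprotein that passes electrons from NADPH to thioredoxin. It had the highest counts of the members, 5566 in SK-LMS-1, or 849 CPM (827 to 872), against 5924 in SK-UT-1, or 736 CPM (717 to 755). Its level in SK-LMS-1 was 1.15 times that in SK-UT-1 (1.11 to 1.2), the only member whose whole interval lay above 1, and its log2 ratio was 0.05 when scaled by library totals. SRXN1, sulfiredoxin, which repairs over-oxidised peroxiredoxins, went the other way. It had 560 counts in SK-LMS-1, or 85.5 CPM (78.5 to 92.8), against 874 counts in SK-UT-1, or 109 CPM (102 to 116), 1.27-fold lower in SK-LMS-1 (1.14 to 1.42). GPX4 encodes the peroxidase that reduces lipid hydroperoxides in membranes. It had 2030 counts in SK-LMS-1, or 310 CPM (296 to 324), against 2352 counts in SK-UT-1, or 292 CPM (281 to 304), a ratio of 1.06 (0.999 to 1.13) that was not a detectable difference and fell below 1 with library totals (log2 -0.07). On the plus strand, TXNRD1 occupies chromosome 12, 104215779 to 104350307, and GPX4 chromosome 19, 1103926 to 1106789. SRXN1 occupies chromosome 20, 646624 to 653370, on the minus strand.

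NQO1, a quinone reductase that is a widely used readout of NRF2 activity, differed most. It had 282 counts in SK-LMS-1, or 43.0 CPM (38.2 to 48.4), against 2367 counts in SK-UT-1, or 294 CPM (282 to 306). It was 6.83-fold lower in SK-LMS-1 (6.04 to 7.76). Only 4.13% of all measured genes had a log2 ratio at or below that of NQO1. HMOX1, haem oxygenase, which degrades haem to biliverdin, carbon monoxide and iron, was the other member past 2-fold. It had 73 counts in SK-LMS-1, or 11.1 CPM (8.73 to 14.0), against 245 counts in SK-UT-1, or 30.4 CPM (26.7 to 34.5), 2.73-fold lower in SK-LMS-1 (2.10 to 3.60). For HMOX1, 11.4% of measured genes had a log2 ratio at or below its own. On the minus strand, NQO1 occupies chromosome 16, 69709401 to 69726668, and on the plus strand HMOX1 occupies chromosome 22, 35381067 to 35394214. No member shared exon bases with another gene on its strand.

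**Figure D1:**
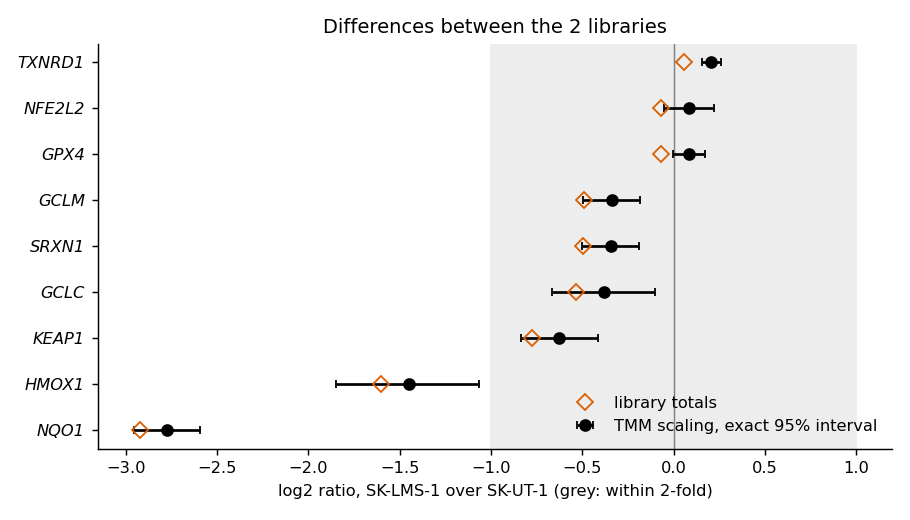
The log2 ratio of SK-LMS-1 over SK-UT-1 (x axis) for each member (y axis), as filled circles with exact 95% intervals under the main scaling and open diamonds under scaling by library totals. NQO1 at -2.77 and HMOX1 at -1.45 lie outside the grey band of 2-fold under both scalings, while NFE2L2 and GPX4 change sign between them.

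**Figure D2:**
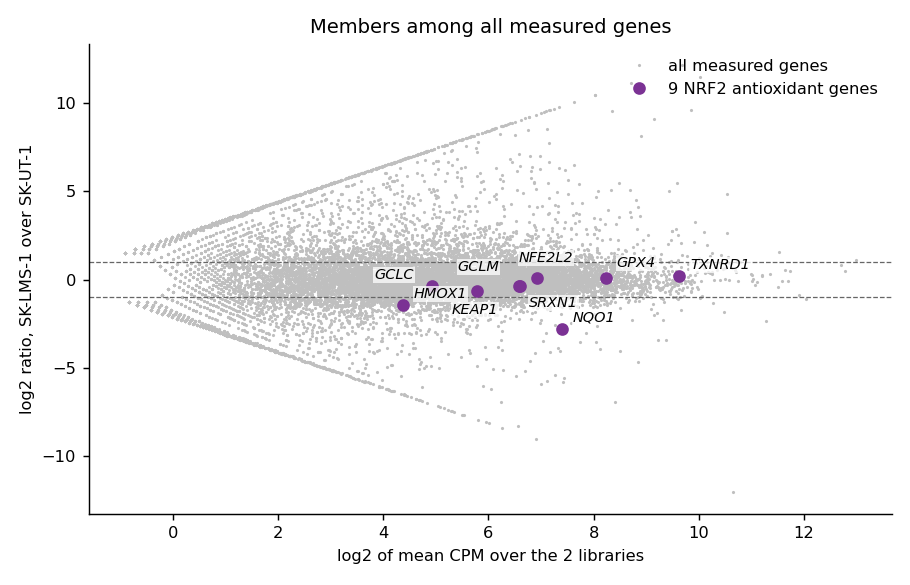
The log2 ratio of SK-LMS-1 over SK-UT-1 (y axis) against the log2 of the mean CPM (x axis) for the 14324 measured genes in grey and the 9 members in purple, with dashed lines at 2-fold. NQO1 lies below the bulk of genes of similar level, and 7 members lie between the dashed lines.

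Levels of different members can be compared only per length, as CPM per kilobase of exon. GPX4 stood highest in both lines, at 252 CPM per kb in SK-LMS-1 against 237 in SK-UT-1, followed by TXNRD1 at 184 in SK-LMS-1 against 160 in SK-UT-1. Among the measured genes, GPX4 was at percentile 99.1 in SK-LMS-1 and likewise 99.1 in SK-UT-1, and TXNRD1 at percentile 98.6 in SK-LMS-1 against 98.4 in SK-UT-1. The order in SK-LMS-1 continued with NFE2L2 (37.2), SRXN1 (31.8), GCLM (16.7), NQO1 (16.4), KEAP1 (16.1), HMOX1 (7.01) and GCLC (6.92). The neighbours in that order that did not differ beyond counting error were GCLM and NQO1, NQO1 and KEAP1, and HMOX1 and GCLC. In SK-UT-1 NQO1 came after TXNRD1 at 112 CPM per kb, ahead of SRXN1 (40.4), NFE2L2 (35.1), KEAP1 (24.8), GCLM (21.2), HMOX1 (19.1) and GCLC (9.03). There, GCLM and HMOX1 were the only neighbours that did not differ beyond counting error. The level of NQO1 was 0.440 times that of NFE2L2 in SK-LMS-1 (0.383 to 0.504) against 3.19 times in SK-UT-1 (2.95 to 3.44). NQO1 was thus at percentile 69.5 of measured genes in SK-LMS-1 against 97.5 in SK-UT-1, and HMOX1 at percentile 48.1 in SK-LMS-1 against 75.1 in SK-UT-1. Lengths are those of all annotated exons together, so a gene that uses a short transcript is given too low a level.

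**Figure D3:**
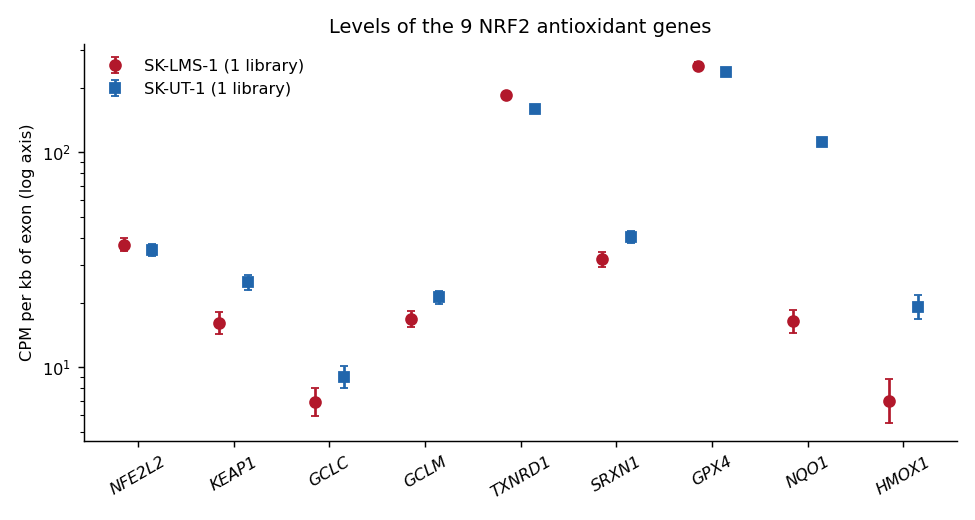
The level of each member (x axis) in CPM per kilobase of exon (y axis, log scale) in SK-LMS-1 (red circles) and SK-UT-1 (blue squares), 1 library each, with exact 95% Poisson intervals. GPX4 and TXNRD1 are high in both lines, and NQO1 stands at 16.4 in SK-LMS-1 against 112 in SK-UT-1.

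Among 11246 protein-coding genes with counts in both lines, those nearest to NFE2L2 in log2 CPM per kb over the 2 libraries were ADIPOR1, PSMA2 and VPS54, at distances of 0.02, 0.03 and 0.04 log2 units. Those nearest to NQO1 were CSRP2, TUBB3 and NFIB, at 0.42, 0.49 and 0.57. Their log2 ratios were -2.80, -2.58 and -3.42. With 2 libraries, such likeness describes a level and a difference and no more.

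The surroundings of NQO1 on chromosome 16 were also lower in SK-LMS-1, though less so. The 26 measured genes within 1 Mb on either side had a median log2 ratio of -0.70, and 0 of them reached the value of NQO1. Over 582 other measured genes of chromosome 16 the median was -0.59. By distance between gene midpoints, the nearest measured gene was NOB1, with 240 counts in SK-LMS-1 against 771 in SK-UT-1, a log2 ratio of -1.39. The next was NFAT5, with 2059 counts in SK-LMS-1 against 2449 in SK-UT-1, a log2 ratio of 0.05. Distances between gene ends were not compared. Around HMOX1, 10 measured genes had a median of 0.35 and none had a ratio below that of HMOX1, while chromosome 22 as a whole had a median of -0.54 over 327 genes. The copy number of these regions was not measured.

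The other genes of the pathway were taken from 13 lists with 212 genes, of which 181 were measured. Of these, 33 (18.2%) were past 2-fold towards SK-LMS-1, 27 (14.9%) towards SK-UT-1 and 121 inside that limit, against 21.9% and 18.3% of all measured genes in these directions. Their median log2 ratio was 0.02. The counts given below for single lists are to be read beside the same shares, 21.9% towards SK-LMS-1 and 18.3% towards SK-UT-1.

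Partners and competitors of NRF2 at the ARE differed one by one. Among the 7 that were measured, MAFK, MAFF and BACH1 were past 2-fold towards SK-LMS-1, BACH2 was lower, and 3 lay within 2-fold (median 0.58). The small MAF gene MAFK stood at 54.9 CPM in SK-LMS-1 against 11.8 in SK-UT-1, 4.65-fold higher (3.70 to 5.90). Its relative MAFF stood at 24.0 CPM in SK-LMS-1 against 5.59 in SK-UT-1, 4.29-fold higher (3.06 to 6.11). BACH1 encodes a repressor that competes with NRF2 and is known for silencing HMOX1, and was chosen for mention after its values were seen. It had 1331 counts in SK-LMS-1 against 732 in SK-UT-1, 2.23-fold higher (2.04 to 2.45). A link between the levels of BACH1 and HMOX1 was not tested. BACH2 had 3 counts in SK-LMS-1 against 131 in SK-UT-1, 35.5-fold lower in SK-LMS-1 (11.9 to 175). NFE2L1, the related factor NRF1, had the highest level of the list, at 68.8 CPM per kb in SK-LMS-1 against 46.0 in SK-UT-1.

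Genes of the KEAP1 ligase and other regulators were mostly alike, with 11 of 13 within 2-fold and a median of 0.02. SQSTM1, the autophagy receptor p62 that binds KEAP1, stood at 263 CPM in SK-LMS-1 against 111 in SK-UT-1, 2.36-fold higher (2.18 to 2.57). USP11, a deubiquitinase, stood at 73.7 CPM in SK-LMS-1 against 155 in SK-UT-1, 2.10-fold lower in SK-LMS-1 (1.89 to 2.34). CAND1, which exchanges cullin adaptors, had the highest level, at 65.1 CPM per kb in SK-LMS-1 against 54.1 in SK-UT-1.

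Glutathione genes differed one by one. In synthesis and breakdown, 4 of 12 measured genes were past 2-fold towards SK-LMS-1, 2 towards SK-UT-1 and 6 inside that limit (median 0.18). GSS, the second enzyme of synthesis, stood at 59.5 CPM in SK-LMS-1 against 21.1 in SK-UT-1, 2.82-fold higher (2.35 to 3.39). CTH, which makes cysteine, was 4.28-fold higher (2.81 to 6.71). OPLAH, which returns 5-oxoproline to glutamate, had 4 counts in SK-LMS-1 against 84 in SK-UT-1, 17.1-fold lower in SK-LMS-1 (6.43 to 64.2), and CHAC2, which cleaves glutathione, was 2.66-fold lower (1.98 to 3.60). The highest level was that of LANCL1, at 35.9 CPM per kb in SK-LMS-1 against 26.5 in SK-UT-1. SLC7A11, the cystine carrier and a known NRF2 target, was chosen after its values were seen; it had 1060 counts in SK-LMS-1 against 1144 in SK-UT-1, a ratio of 1.14 (1.05 to 1.24).

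Among reductases, peroxidases and glutaredoxins, 0 of 11 were past 2-fold towards SK-LMS-1, 2 towards SK-UT-1 and 9 inside that limit (median -0.15). The peroxidase gene GPX7 was 2.60-fold lower in SK-LMS-1 (1.46 to 4.88) and GLRX3, a glutaredoxin, 2.10-fold lower (1.79 to 2.48). GLO1, which detoxifies methylglyoxal, had the highest level at 127 CPM per kb in SK-LMS-1 against 211 in SK-UT-1. Glutathione S-transferases were split, with 5 of 14 past 2-fold towards SK-LMS-1, 3 towards SK-UT-1 and 6 inside that limit (median 0.29). MGST1, the microsomal transferase, had 1646 counts in SK-LMS-1 against 16 in SK-UT-1, 126-fold higher (77.6 to 222). GSTM2 had 43 counts in SK-LMS-1 against 0 in SK-UT-1, which is at least 17.6-fold higher when the 0 is set at a floor of 3 counts, with an exact lower limit of 13.7-fold. That limit allows for a true level above the floor in the library with 0 counts. It therefore lies below the ratio to the floor, here and wherever a line had 0 counts. The words at least hold only for a true level at or below the floor, and the exact limit is the bound for counting error. GSTM2 is uncertain because its family holds near-identical copies. GSTM3 was 3.44-fold lower in SK-LMS-1 (2.57 to 4.66). PTGES, a prostaglandin synthase of the same superfamily as MGST1, had 0 counts in SK-LMS-1 against 42 in SK-UT-1, at least 11.4-fold lower in SK-LMS-1 against the floor (exact lower limit 8.87). GSTP1 had the highest level, at 47.0 CPM per kb in SK-LMS-1 against 61.6 in SK-UT-1.

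Thioredoxins, peroxiredoxins and sestrins had the lowest median of the 13 lists, at -0.80. Of 16 measured genes, 0 were past 2-fold towards SK-LMS-1, 4 towards SK-UT-1 and 12 inside that limit. The 4 (25%) stand beside 18.3% of all measured genes past 2-fold in that direction, and the 0 beside 21.9% in the other. The 4 were NXN, SESN3, TXNRD3 and PRDX2, the last pair named after their values were seen. NXN, nucleoredoxin, had 27 counts in SK-LMS-1 against 684 in SK-UT-1, 20.6-fold lower in SK-LMS-1 (14.0 to 31.5). SESN3, a stress-induced sestrin, had 220 counts in SK-LMS-1 against 3161 in SK-UT-1, 11.7-fold lower in SK-LMS-1 (10.2 to 13.5). PRDX1, the most abundant peroxiredoxin of the list and a substrate of sulfiredoxin, stood at 141 CPM per kb in SK-LMS-1 against 277 in SK-UT-1, 1.96-fold lower in SK-LMS-1 (1.84 to 2.10).

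Genes that supply NADPH to these enzymes were mostly within 2-fold, with 4 of 16 past it towards SK-LMS-1, 1 towards SK-UT-1 and 11 inside (median 0.08). ME1, the cytosolic malic enzyme, had 397 counts in SK-LMS-1 against 0 in SK-UT-1, which is at least 163-fold higher against the floor (exact lower limit 132). The mitochondrial malic enzyme ME3 was 3.53-fold higher (2.44 to 5.20), and IDH2 was 2.13-fold lower in SK-LMS-1 (1.83 to 2.49). PGD, of the pentose phosphate pathway, had the highest level at 120.0 CPM per kb in SK-LMS-1 against 214 in SK-UT-1.

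Of 14 measured haem and iron genes, 2 were past 2-fold towards SK-LMS-1, 1 towards SK-UT-1 and 11 inside that limit (median -0.19). BLVRA, which reduces the biliverdin that haem oxygenase makes, stood at 25.9 CPM in SK-LMS-1 against 6.21 in SK-UT-1, 4.18-fold higher (3.03 to 5.85). It thus lay in the opposite direction from HMOX1. SLC48A1, a haem carrier, was 2.39-fold higher (1.72 to 3.35), and IREB2, an iron-responsive RNA-binding protein, was 2.10-fold lower in SK-LMS-1 (1.93 to 2.28). FTL, ferritin light chain and a known NRF2 target, had the highest level at 204 CPM per kb in SK-LMS-1 against 251 in SK-UT-1.

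Of 22 measured quinone, carbonyl and xenobiotic genes, 3 were past 2-fold towards SK-LMS-1, 6 towards SK-UT-1 and 13 inside that limit (median -0.10). AKR1B1, aldose reductase, had 266 counts in SK-LMS-1 against 0 in SK-UT-1, which is at least 109-fold higher against the floor (exact lower limit 88.0). CBR3, a carbonyl reductase, was 2.19-fold higher (1.40 to 3.49). ALDH3A2, an aldehyde dehydrogenase for fatty aldehydes, was 6.01-fold lower in SK-LMS-1 (4.89 to 7.46) and TRIM16 3.43-fold lower (2.48 to 4.84), the second uncertain because TRIM16L is a close copy. The highest level was that of CBR1, at 31.9 CPM per kb in SK-LMS-1 against 24.7 in SK-UT-1. Among efflux pumps, 3 of 7 were past 2-fold towards SK-LMS-1, 1 towards SK-UT-1 and 3 inside that limit (median 0.69). ABCG2 had 108 counts in SK-LMS-1 against 2 in SK-UT-1, 66.3-fold higher (17.9 to 555), ABCC3 was 22.8-fold higher (9.45 to 72.0), and ABCC2 had 0 counts in SK-LMS-1 against 59 in SK-UT-1, at least 16.0-fold lower in SK-LMS-1 against the floor (exact lower limit 12.6). ABCC4 had the highest level, at 17.5 CPM per kb in SK-LMS-1 against 10.9 in SK-UT-1.

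In the list of superoxide dismutases, catalase and oxidases, 12 genes were measured. Of these, 1 was past 2-fold towards SK-LMS-1, 2 towards SK-UT-1 and 9 inside that limit (median -0.23). The genes inside it include MSRA, MSRB1, MSRB2, MSRB3, PARK7 and PON2, which are on the list but are none of those enzymes. NOX4, an oxidase that makes hydrogen peroxide, had 51 counts in SK-LMS-1 against 0 in SK-UT-1, which is at least 20.9-fold higher against the floor (exact lower limit 16.4). CYBA, the membrane partner of several oxidases, had 7 counts in SK-LMS-1 against 129 in SK-UT-1, 15-fold lower in SK-LMS-1 (7.08 to 38.1). SOD1, the cytosolic dismutase, stood at 166 CPM per kb in SK-LMS-1 against 380 in SK-UT-1, 2.29-fold lower in SK-LMS-1 (2.14 to 2.46).

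Ferroptosis is the form of cell death by lipid peroxidation that GPX4 prevents. Of 16 measured genes of that list, 3 were past 2-fold towards SK-LMS-1, 1 towards SK-UT-1 and 12 inside that limit (median 0.22). ACSL4, which loads membranes with the polyunsaturated fatty acids that are oxidised, had 4053 counts in SK-LMS-1 against 574 in SK-UT-1, 8.67-fold higher (7.95 to 9.48). PTGS2, cyclooxygenase 2, had 240 counts in SK-LMS-1 against 0 in SK-UT-1, which is at least 98.3-fold higher against the floor (exact lower limit 79.3). DHODH, which reduces ubiquinone in mitochondria, was 2.88-fold lower in SK-LMS-1 (2.02 to 4.18). GPX4 itself lay between them with its ratio of 1.06.

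TXNRD1 and GPX4 contain selenocysteine, and a list with the genes that make and insert it was compared for that reason. Most genes of that list are other selenoproteins or related genes, so its counts do not describe synthesis and insertion alone. Of 21 measured genes of the selenocysteine list, 4 were past 2-fold towards SK-LMS-1, 2 towards SK-UT-1 and 15 inside that limit (median 0.11). SECISBP2, which recruits the insertion machinery to selenoprotein transcripts, stood at 66.5 CPM in SK-LMS-1 against 20.9 in SK-UT-1, 3.19-fold higher (2.66 to 3.83). SEPHS2, which makes the selenium donor, was 2.17-fold lower in SK-LMS-1 (1.84 to 2.57), and its relative SEPHS1 2.02-fold lower (1.76 to 2.33). DIO2, a deiodinase, had 180 counts in SK-LMS-1 against 1 in SK-UT-1, 221-fold higher (39.2 to 8781). SEP15, now called SELENOF, had the highest level at 56.2 CPM per kb in SK-LMS-1 against 35.2 in SK-UT-1.

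**Figure D4:**
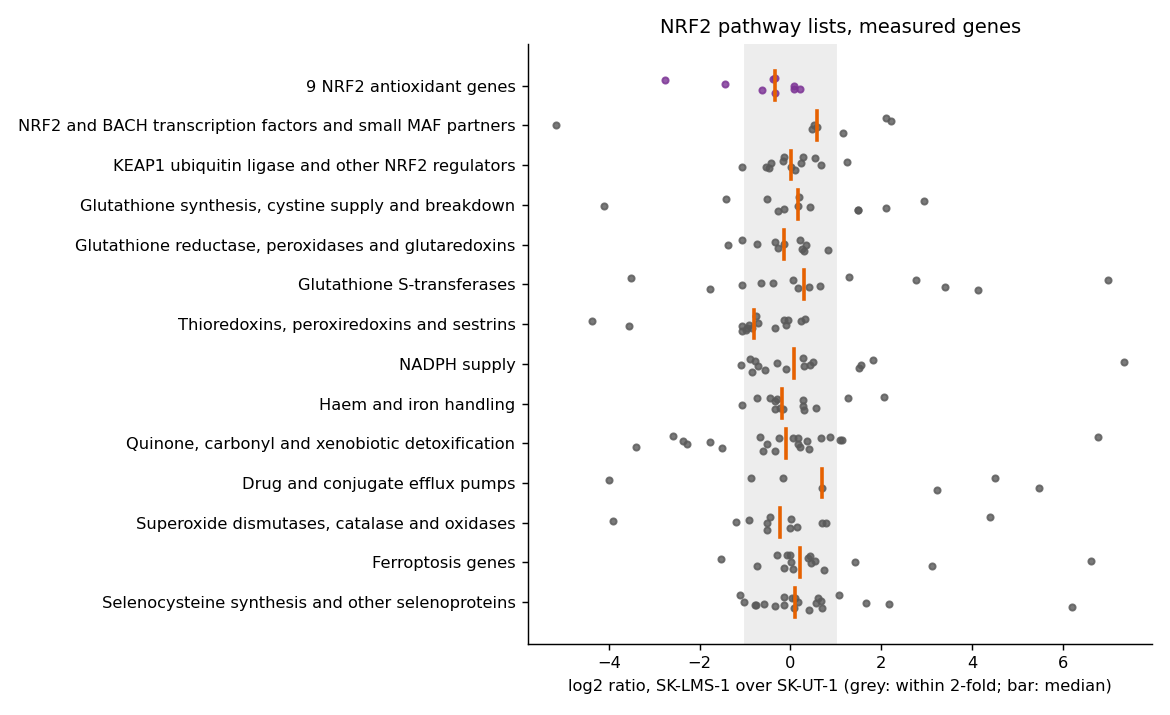
The log2 ratio of SK-LMS-1 over SK-UT-1 (x axis) for each measured gene (points) of the 9 members and of the 13 pathway lists (y axis), with an orange bar at each median and a grey band for differences within 2-fold. Most points lie in the band, the thioredoxin list has the lowest median at -0.80, and single genes such as ME1, MGST1, NXN and BACH2 lie far outside it.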

How the data were processed

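The deposited table holds raw counts of fragments per gene, which the authors made with featureCounts 2.0.1 on hg38 with a UCSC annotation, per the file headers. Fragments over exons were counted on strand setting 1, and fragments overlapping more than 1 gene counted for all of them. The libraries were made with a stranded total RNA kit, per the labels' protocols. No source used here names the aligner. Near-identical gene copies can lose counts. A further 2 columns of counts match neither sample and were not used.

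Library sizes were scaled by edgeR 4.0.16 (TMM; the SK-LMS-1 factor was 0.949 and the SK-UT-1 factor 1.05, R 4.3.3), and CPM was computed from the scaled sizes. Ratios are SK-LMS-1 over SK-UT-1. Genes with 1 CPM or more in the higher library (6.55 counts for SK-LMS-1 and 8.05 counts for the other line) were called measured. Counts below 3 were raised to 3 for the 2-fold rule and the medians, and folds against 0 counts use that floor per library (0.458 and 0.373 CPM). Folds against 1 to 3 counts are the plain ratio. Ratio intervals are conditional binomial (Clopper-Pearson, scipy 1.17.1) and level intervals Poisson. The computation was tested on simulated counts with counting error only, which says nothing of variation between libraries.

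The members and lists were chosen with earlier results of these data known. For each list the text names up to 2 genes per direction with the largest ratios at 2-fold and 5 CPM or more, and the gene with the highest level per kilobase. Of the 212 list genes, 11 were matched through older symbols. The alternatives tried were scaling by library totals, by DESeq2 1.42.0 size factors and by the upper quartile, other filters, size rules, a floor of 1 count and thinning of the deeper library.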

Additional observations from a re-analysis of the deposited data

How the results depend on the processing

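Among the 9 members, 2 were past 2-fold towards SK-UT-1 and 0 towards SK-LMS-1 under each scaling tried, under thinning, and with the rule applied to the whole interval; the filters and the floor cannot alter a ratio at the members' counts. A 4-fold rule left 1 member towards SK-UT-1, NQO1, beside 7.30% of all measured genes, and a 1.5-fold rule gave 3, beside 28.3%. The log2 ratio of NQO1 stayed between -2.92 and -2.77 and that of HMOX1 between -1.60 and -1.45. Library totals moved the median of all measured genes to -0.15 and the upper quartile moved it to -0.14, from 0.01; the member median was then -0.50 and -0.48. NFE2L2 (-0.07) and GPX4 (-0.07) lay below 0 with library totals, and both lay at -0.05 with the upper quartile, in each case by less than that shift. The pathway genes past 2-fold were 33 towards SK-LMS-1 and 27 towards SK-UT-1, and with library totals 30 and 34, while the shares of all measured genes moved alike, to 19.5% towards SK-LMS-1 and 21.6% towards SK-UT-1. Of 36 ratios of single members under the 3 other scalings and thinning, 31 stayed within the main interval. Each of the 3 scalings shifts all members by the same amount, while thinning redraws the counts of 1 library and moves members unequally. All reuse the same 2 libraries, so the 36 are not separate checks. For the pathway lists, a 1.5-fold rule gave 45 genes towards SK-LMS-1 and 47 towards SK-UT-1 (30.8% and 28.3% of all measured genes), a 4-fold rule 19 and 11 (11.4% and 7.30%), and whole intervals beyond 2-fold 25 and 14 (15.1% and 10.1%), because each rule moves the limit itself. No paired analysis was possible because each line has 1 library, and no library could be left out. Depth limits the ratios of genes with few counts, of which HMOX1 is the member with the fewest.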
